A study of Mus musculus with 10 samples.

Results

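The genes of proximal T cell receptor signalling, which carry a signal from the receptor to its first enzymes, were compared between Helios+ and Helios− regulatory T cells (Treg cells) of the mouse. They were chosen as the genes of the deposited table whose symbol equals one of 42 listed symbols, which gave 40 of 13252 genes. Of the other symbols, Gads is another name of Grap2, and Themis2 was not analysed here. All 40 members passed the minimum mean of 10 normalized counts over the 10 libraries that a gene needed to be tested, and their means ranged from 175 to 7116 normalized counts.

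RNA-seq libraries came from 5 samples of CD4+RFP+GFP+ cells, which the labels call Helios+, and from 5 of CD4+RFP+GFP− cells, which they call Helios−. GFP stands for Helios, the zinc finger factor encoded by Ikzf2, while the labels used here give no meaning for RFP, no age, no mouse strain and no treatment. Wild-type and knockout cells are spoken of in the design text of the series, but the sample labels describe sorted populations, and the groups were formed by these labels. The labels leave unsaid whether the samples of a group stem from different mice, so each p-value measures only a spread between samples that may be technical.

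Recovered reads ranged from 4872348 to 6948692 per library. Ikzf2 (chromosome 1, 69531214 to 69687245, minus strand) lay between 9667 and 10906 normalized counts in the Helios+ libraries and between 418 and 572 in the Helios− libraries. Foxp3, the factor that defines Treg cells, averaged 3570.1 ± 201 normalized counts in Helios+ and 3526 ± 226 in Helios− libraries (SD, n = 5 each). Of the 7 tested markers of T cells and Treg cells, Tnfrsf18, Ctla4 and Il2ra were called higher and Thy1 lower in Helios+ cells, with log2 changes of 1.13, 0.58, 0.25 and −0.76. Il2ra, the most abundant of them, averaged 4648 ± 397 normalized counts in Helios+ and 3899.5 ± 269 in Helios− libraries. Markers of other cells were detected in both groups. The summed level of 12 B cell markers was 2027 to 3030.4 normalized counts in Helios+ and 2419 to 3663 in Helios− libraries, with Cd22 and Cr2 the most abundant and 1 of 12, Ebf1, called lower (6 of 12 with the replicate number as a block). Cd8a and Cd8b1 summed to 311 to 377 in Helios+ and 347 to 413 in Helios− libraries, and were not called (limma adjusted p = 0.42 and 0.0755). Cd8b1 was called lower with the replicate block (limma adjusted p = 0.0111) and after quantile normalization (limma adjusted p = 0.0473). The 11 measured markers of macrophages and monocytes summed to 2187 to 2588 in Helios+ and 1717 to 2269 in Helios− libraries, led by Ctss and Cybb, while Cd14, Fcgr1 and Lyz1 were each under 3 normalized counts in the mean of either group. Cybb and Csf1r, 2 of the 8 tested, were called higher in Helios+ cells. NK cell, dendritic cell and red cell or platelet markers summed to at most 175, 108 and 53.9 normalized counts in any library, with Eomes and Klrb1c, Siglech and Itgax, and Itga2b and Alas2 the most abundant. Among these, Klrk1 was called lower and Zbtb46 higher in Helios+ cells, with log2 changes of −0.71 and 1.18 (limma adjusted p = 0.0251 and 0.0348). Klrk1 averaged 19.7 ± 5.88 normalized counts in Helios+ and 31.9 ± 1.98 in Helios− libraries. Zbtb46 averaged 14.9 ± 4.03 in Helios+ and 6.70 ± 3.94 in Helios− libraries, and passed the minimum mean only through its Helios+ level. Both changes thus rest on few reads per library, and the Zbtb46 call was lost after quantile normalization (limma adjusted p = 0.177). The part of these other cells in the results that follow was not tested. In sorted populations as a whole, fewer cells that hold an RNA and less of it per cell cannot be told apart.

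In a T cell, the antigen receptor is held by the CD3 chains and the zeta chain, whose tyrosines are phosphorylated by the Src family kinases Lck and Fyn. The kinase ZAP-70 docks on them and phosphorylates the adaptors LAT and SLP-76, on which phospholipase C-gamma, Vav proteins, Tec family kinases and Grb2 family adaptors assemble. Diacylglycerol and calcium signals then reach protein kinase C-theta, Ras, NF-κB and NFAT, while phosphatases, ubiquitin ligases and inhibitory adaptors limit the response. Treg cells need signals through this receptor for their development and for suppression.

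Fewer transcripts of several adaptors of this pathway and of some kinases, such as Txk, were counted in Helios+ than in Helios− cells. More were counted of the kinases Zap70 and Fyn. Those of the CD3 chains, Lck and SLP-76 were not called, but Cd3g and Cd3e were called higher with the replicate block and after quantile normalization. Of the 40 members, 21 (52.5%) passed the test, limma's moderated test with a Benjamini-Hochberg adjusted p under 0.05 over all 10718 genes tested, which called 24.8% of them. Lower in Helios+ cells were 15 members, or 37.5%, where 10.7% of all tested genes were lower. Higher were 6 members, or 15.0%, near the 14.1% of all tested genes. Among the 5320 tested genes at least as abundant as the least abundant member, 26.5% were called, 15.3% lower and 11.2% higher. The median log2 change of normalized count + 1 was −0.06 over the members, −0.02 over all tested genes and −0.05 over those 5320 genes. Log2 changes are given on this scale, Helios− subtracted from Helios+, ± SE, and means of normalized counts ± SD with n = 5 in each group. Gene positions are those of GRCm38 in GENCODE vM21.

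The 5 Helios+ and 5 Helios− libraries did not overlap for 18 members (45.0%), 6 higher and 12 lower, where 19.5% of all tested genes did not overlap, 11.2% higher and 8.37% lower. All 21 called members moved in their direction in 5 of 5 comparisons of libraries with equal replicate numbers. For the 18 without overlap, which were all called, this is certain under any numbering, so for them the count adds nothing. Blocking on the replicate number, limma called 10 members higher and 15 lower, where it called 18.9% and 18.5% of all genes. After quantile normalization of the log2 values it called 10 members higher and 9 lower, where it called 12.8% and 12.7% of all genes, so the share of called members that were higher was 28.6% as deposited and 52.6% with quantile normalization. The 6 lower calls lost there were Dgka, Fyb, Vav1, Skap1, Malt1 and Cblb. The sum over the 40 members was 65026 ± 1018 normalized counts in Helios+ and 71364 ± 731 in Helios− libraries (SD, n = 5 each).

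**Figure D1:**
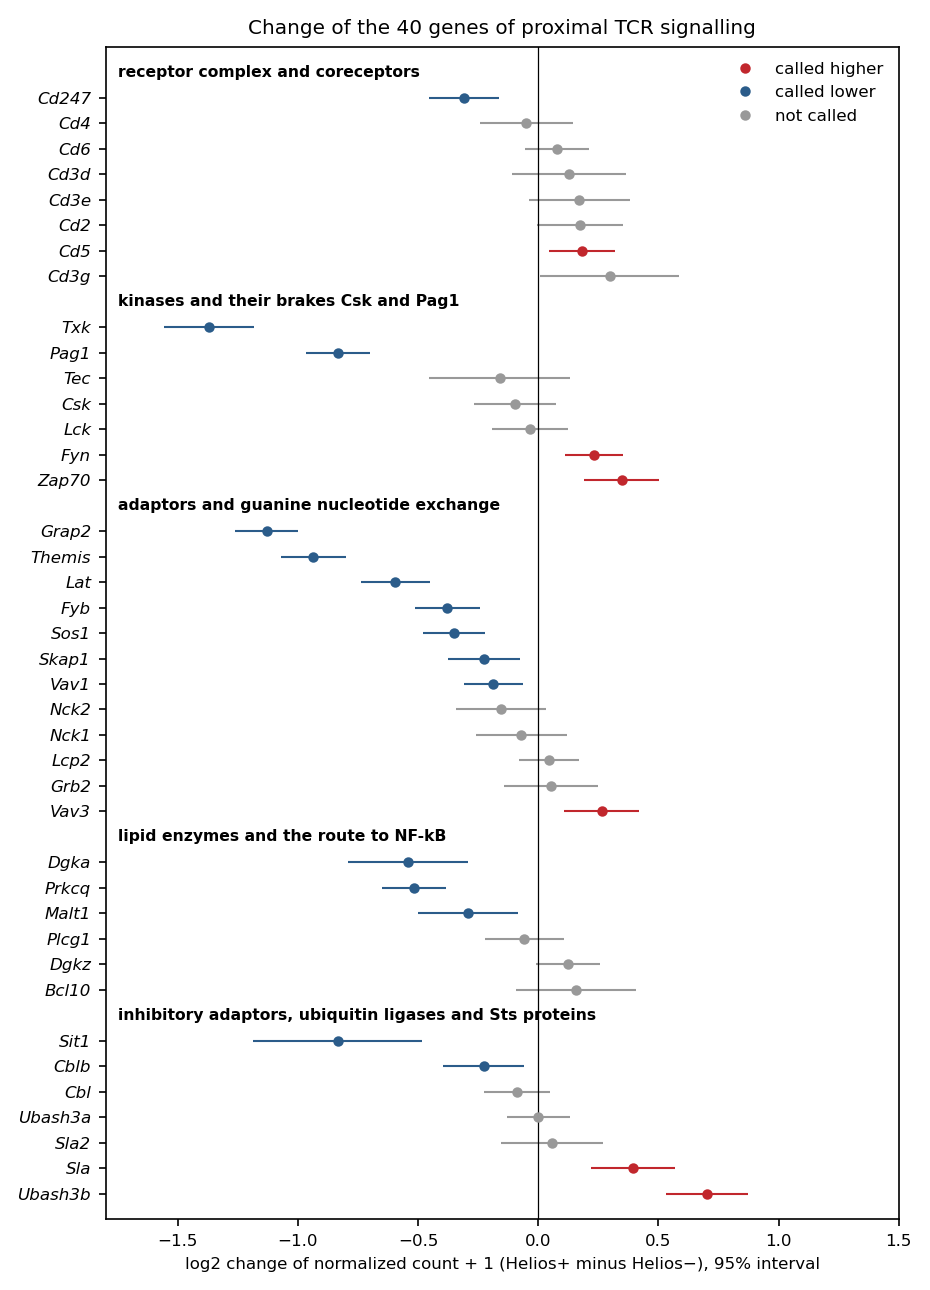
Change between Helios+ and Helios− cells, as a log2 difference of normalized count + 1, of each of the 40 members, grouped by role and ordered within a role, with the 95% interval of limma as a line. Red marks the 6 members called higher, blue the 15 called lower and grey the 19 not called, and the changes run from −1.37 for Txk to 0.70 for Ubash3b.

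The promoters of members with large changes are shown so that their sequence can be set beside the values. They are the 3 lower and 2 higher members with the largest log2 changes among called members whose groups did not overlap and that have an entry in the RefSeq promoter table (build GRCm38.p6). Each run holds the 250 bases before the most upstream start in that table, 5′ to 3′ on the strand of the gene. For Grap2 and Ubash3b that start lies inside the GENCODE span of the gene. Capitals mark GGGAA or its reverse complement TTCCC, the core letters that Ikaros family factors such as Helios are known to bind. The windows are Txk at chr5:72752778-72753027 on the minus strand, Grap2 at chr15:80623233-80623482 on the plus strand, Themis at chr10:28668110-28668359 on the plus strand, Ubash3b at chr9:41158063-41158312 on the minus strand, and Zap70 at chr1:36761548-36761797 on the plus strand.
Txk: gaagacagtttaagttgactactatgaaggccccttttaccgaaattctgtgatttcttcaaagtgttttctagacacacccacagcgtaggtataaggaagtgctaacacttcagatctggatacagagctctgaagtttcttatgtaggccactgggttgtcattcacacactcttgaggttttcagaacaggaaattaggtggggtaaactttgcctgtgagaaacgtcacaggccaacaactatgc
Grap2: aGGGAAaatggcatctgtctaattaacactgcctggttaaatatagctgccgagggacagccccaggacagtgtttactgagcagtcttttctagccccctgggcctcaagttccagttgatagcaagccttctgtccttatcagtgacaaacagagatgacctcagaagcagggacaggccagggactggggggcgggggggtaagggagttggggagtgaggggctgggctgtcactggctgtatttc
Themis: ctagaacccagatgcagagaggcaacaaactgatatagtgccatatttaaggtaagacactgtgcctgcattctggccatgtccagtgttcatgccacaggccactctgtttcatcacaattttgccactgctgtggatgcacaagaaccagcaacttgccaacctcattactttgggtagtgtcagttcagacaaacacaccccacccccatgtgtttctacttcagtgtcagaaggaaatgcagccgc
Ubash3b: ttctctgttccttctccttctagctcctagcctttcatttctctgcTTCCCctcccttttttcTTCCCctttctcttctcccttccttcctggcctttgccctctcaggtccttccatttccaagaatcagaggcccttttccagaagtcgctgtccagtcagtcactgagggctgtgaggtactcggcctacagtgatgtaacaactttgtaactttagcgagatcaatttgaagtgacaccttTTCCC
Zap70: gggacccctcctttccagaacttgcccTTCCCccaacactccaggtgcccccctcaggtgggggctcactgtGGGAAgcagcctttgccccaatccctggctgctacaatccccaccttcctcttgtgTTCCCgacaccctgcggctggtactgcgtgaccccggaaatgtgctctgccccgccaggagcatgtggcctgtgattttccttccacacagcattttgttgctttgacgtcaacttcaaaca

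The letters GGGAA or TTCCC stood 0 times in the windows of Txk and Themis, 1 time in that of Grap2, and 3 times each in those of Ubash3b and Zap70. Of the 27025 genes with such a window, 56.0% held these letters, as did 16 (48.5%) of the 33 members with an entry. The core letters of T cell factors of the TCF and LEF family, CTTTGA or TCAAAG, stood in 14.1% of all windows and in 7 (21.2%) of those of the members, among them Txk and Zap70. The Runx core TGTGGT or ACCACA was in 14.2% of all windows and in 3 (9.09%) of the members, and the Ets core CCGGAA or TTCCGG in 12.3% and in 4 (12.1%), Zap70 among them. GGGAA and CCGGAA cannot both match the same GGAA, since they differ in the letter before it. A match describes these letters only.

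Among the genes of the receptor itself and its coreceptors, 1 of 8 members was lower and 1 was higher (12.5% each). These shares lay near the 10.7% and 14.1% of all tested genes. With the replicate block 4 of the 8 were higher, where 18.9% of all genes were. Cd247 (chromosome 1, 165788681 to 165877277, plus strand), which encodes the zeta chain, was the lower one. It had 1389, 1377, 1482, 1428 and 1402 normalized counts in the Helios+ libraries, against 1523, 1737, 1881, 1761 and 1895 in the Helios− libraries. The groups did not overlap, and the lowest Helios− library was number 1. The log2 change was −0.31 ± 0.07 (limma adjusted p = 0.00301). By the GENCODE vM21 annotation 60.3% of the exon bases of Cd247 lie in exons of Pou2f1 or Gm16565, and the strand setting of the counting is not given in the sources used here. Pou2f1 itself averaged 725 ± 52.9 normalized counts in Helios+ and 852 ± 101 in Helios− libraries, and its change of −0.23 ± 0.08 was not called (limma adjusted p = 0.0609). The part of its reads in the value of Cd247 was not tested.

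The 3 CD3 chain genes, which lie side by side on chromosome 9, were not called. Cd3g (chromosome 9, 44969572 to 44980431, minus strand) had 3156, 3251, 3790.2, 3741 and 3865 normalized counts in the Helios+ libraries, against 1943, 2958, 3460.2, 2929 and 3439 in the Helios− libraries. It was higher in the Helios+ library of each replicate number, yet the groups overlapped, with Helios− libraries 3 and 5 above Helios+ libraries 1 and 2. Its log2 change was 0.30 ± 0.13 (95% interval 0.01 to 0.59, limma adjusted p = 0.129). Cd3e averaged 3215 ± 258 normalized counts in Helios+ and 2875 ± 438 in Helios− libraries, and Cd3d averaged 1005 ± 82.1 normalized counts in Helios+ and 929.6 ± 172 in Helios− libraries. With the replicate block, Cd3g and Cd3e were called higher (limma adjusted p = 0.00741 and 0.00773), as was Cd2 (limma adjusted p = 0.00199), and quantile normalization called the same 3 genes higher (limma adjusted p = 0.0297, 0.0313 and 0.0142). Cd3d was not called in either.

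Cd4, the coreceptor that brings Lck to the receptor, averaged 3208 ± 276 normalized counts in Helios+ and 3334 ± 446 in Helios− libraries and differed by −0.05 ± 0.09 in log2, with a 95% interval of −0.24 to 0.14. The adhesion receptor Cd2 averaged 3768 ± 349 normalized counts in Helios+ and 3344 ± 318 in Helios− libraries and was higher in 5 of 5 replicate numbers without passing the test (limma adjusted p = 0.155). Cd5, an inhibitory scavenger receptor whose level is known to follow the strength of receptor signals in thymocytes, had 1804, 1979, 2009, 1861 and 1955 normalized counts in the Helios+ libraries, against 1682, 1507, 1768, 1737 and 1775 in the Helios− libraries. These groups did not overlap but lay close, 1804 being the lowest Helios+ and 1775 the highest Helios− value, and the log2 change of 0.18 ± 0.06 stood at the threshold (limma adjusted p = 0.0498). The call was lost without Helios+ library 2, 3, 4 or 5 or Helios− library 1, 2, 4 or 5 (adjusted p of 0.0519 to 0.136). It was also lost without both libraries of number 3, with a pseudocount of 5 (limma adjusted p = 0.0501) and with no filter (limma adjusted p = 0.0556). Its relative Cd6 averaged 1450.2 ± 90.9 normalized counts in Helios+ and 1374 ± 58.8 in Helios− libraries and differed by 0.08 ± 0.06 (limma adjusted p = 0.42).

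Among the 7 kinases and their brakes, Txk and Pag1 were lower, Zap70 and Fyn were higher, and Lck, Csk and Tec were not called. Each direction thus held 28.6% of the 7, where 10.7% of all tested genes were lower and 14.1% higher. Txk (chromosome 5, 72695978 to 72752777, minus strand), which encodes a Tec family kinase also called Rlk, showed the largest change of all members. It had 302, 259, 220.5, 256 and 245 normalized counts in the Helios+ libraries, against 682, 745, 601, 658 and 626 in the Helios− libraries. Every Helios− library held at least 601 normalized counts and no Helios+ library passed 302. The mean was 2.58-fold lower in Helios+ cells, a log2 change of −1.37 ± 0.09 (limma adjusted p = 1.87e-08).

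Pag1 (chromosome 3, 9687479 to 9833679, minus strand) encodes the membrane adaptor that recruits Csk, the kinase that inactivates Lck and Fyn. It had 731, 810.5, 829.8, 768 and 781 normalized counts in the Helios+ libraries, against 1286, 1379, 1504, 1429 and 1402 in the Helios− libraries. The groups lay far apart, with a mean 1.79-fold lower in Helios+ cells and a log2 change of −0.83 ± 0.06 (limma adjusted p = 9.8e-08). Csk itself averaged 1810.0 ± 106 normalized counts in Helios+ and 1943 ± 224 in Helios− libraries, with a 95% interval of its log2 change of −0.27 to 0.08.

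Zap70 (chromosome 1, 36761798 to 36782818, plus strand), the kinase that docks on the phosphorylated receptor chains, went the other way. It had 929, 1151, 1085, 1006 and 983 normalized counts in the Helios+ libraries, against 785, 757, 908, 829 and 771 in the Helios− libraries. The groups did not overlap by a narrow gap, from 908 to 929 normalized counts, and the mean was 1.27-fold higher in Helios+ cells (log2 change 0.35 ± 0.07, limma adjusted p = 0.0025). Fyn had 3294, 3520.3, 3365, 3332 and 3209 normalized counts in the Helios+ libraries, against 2806, 2915, 2893, 2768 and 2837 in the Helios− libraries. It was 1.18-fold higher with little spread in either group (log2 change 0.23 ± 0.06, limma adjusted p = 0.00654). Lck, the main Src family kinase of T cells, averaged 2752 ± 106 normalized counts in Helios+ and 2826 ± 296 in Helios− libraries and its log2 change of −0.03 ± 0.07 had a 95% interval of −0.19 to 0.12. Tec, another kinase of the Tec family, averaged 165 ± 27.3 normalized counts in Helios+ and 185 ± 32.5 in Helios− libraries, with an interval of −0.45 to 0.13.

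The adaptors and guanine nucleotide exchange factors, the largest of the role groups, held the most lower calls, 7 of 12 measured members (58.3%), with 1 higher. Of all tested genes 10.7% were lower. After quantile normalization 4 of the 12 were lower, where 12.7% of all genes were. Grap2 (chromosome 15, 80572594 to 80652854, plus strand) encodes Gads, which links SLP-76 to LAT. It had 965, 879, 903, 956 and 936 normalized counts in the Helios+ libraries, against 2233, 2008, 1892, 2062 and 1978 in the Helios− libraries. All Helios+ libraries lay at or under 965 normalized counts and all Helios− libraries at or above 1892. The mean was 2.19-fold lower in Helios+ cells, with a log2 change of −1.13 ± 0.06 and the smallest p of the members (limma adjusted p = 3.1e-09). Lcp2, which encodes the SLP-76 that Gads carries, averaged 2567 ± 95.6 normalized counts in Helios+ and 2489 ± 112 in Helios− libraries, with a log2 change of 0.04 ± 0.06 and a 95% interval of −0.08 to 0.17.

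Themis (chromosome 10, 28668360 to 28883818, plus strand), an adaptor known for its part in the positive selection of thymocytes, had 326, 366, 335, 368 and 357 normalized counts in the Helios+ libraries, against 654, 705, 689, 646 and 658 in the Helios− libraries. The groups were separated by more than the whole range of either, and the mean was 1.91-fold lower in Helios+ cells (log2 change −0.94 ± 0.06, limma adjusted p = 3.78e-08). Lat (chromosome 7, 126363824 to 126369570, minus strand), the membrane scaffold phosphorylated by ZAP-70, had 961, 1026, 1059, 879 and 920.2 normalized counts in the Helios+ libraries, against 1522, 1524, 1505, 1358 and 1405 in the Helios− libraries. It was 1.51-fold lower (log2 change −0.60 ± 0.07, limma adjusted p = 7.72e-06).

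Fyb, which encodes ADAP, and Skap1, its partner in the activation of integrins, were both lower. Fyb was the most abundant member by normalized count, at 6345, 6186, 6016, 6152 and 6232 in the Helios+ libraries and 8599, 8384, 7649, 7869 and 7725 in the Helios− libraries, with 10.2% of its exon bases shared with other genes. Its log2 change was −0.38 ± 0.06 (limma adjusted p = 0.000365, and 0.0767 after quantile normalization). Skap1 averaged 1339 ± 73.7 normalized counts in Helios+ and 1568 ± 133 in Helios− libraries, which did not overlap, and its log2 change was −0.22 ± 0.07 (limma adjusted p = 0.0276). That call was lost without Helios+ library 1, 2 or 3 or Helios− library 4 or 5 (adjusted p of 0.0505 to 0.0804), and after quantile normalization (limma adjusted p = 0.138). Sos1, which loads Ras with GTP, averaged 581 ± 20.2 normalized counts in Helios+ and 741 ± 38.2 in Helios− libraries, again without overlap (log2 change −0.35 ± 0.06, limma adjusted p = 0.000468). Grb2, the adaptor that carries Sos1, averaged 533 ± 25.8 normalized counts in Helios+ and 517 ± 74.02 in Helios− libraries and was not called, and neither were the cytoskeletal adaptors Nck1 and Nck2. Nck1 averaged 254 ± 15.5 normalized counts in Helios+ and 267 ± 29.6 in Helios− libraries (log2 change −0.07 ± 0.09), and Nck2 averaged 254 ± 15.9 normalized counts in Helios+ and 283 ± 29.9 in Helios− libraries (log2 change −0.15 ± 0.09).

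The Vav genes, exchange factors for small GTPases, moved in opposite directions. Vav3 had 432, 473, 447, 442 and 395 normalized counts in the Helios+ libraries, against 394, 351, 372, 373 and 333 in the Helios− libraries, so the groups met almost at 394 to 395 normalized counts, and its log2 change was 0.26 ± 0.07 (limma adjusted p = 0.0145). Vav1, the more abundant of them by normalized count, averaged 1598 ± 47.8 normalized counts in Helios+ and 1819.8 ± 84.2 in Helios− libraries and differed by −0.19 ± 0.06 (limma adjusted p = 0.0269). The Vav1 call was lost without Helios+ library 3, 4 or 5 or Helios− library 2 or 5 (adjusted p of 0.0514 to 0.072), and after quantile normalization (limma adjusted p = 0.203).

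**Figure D2:**
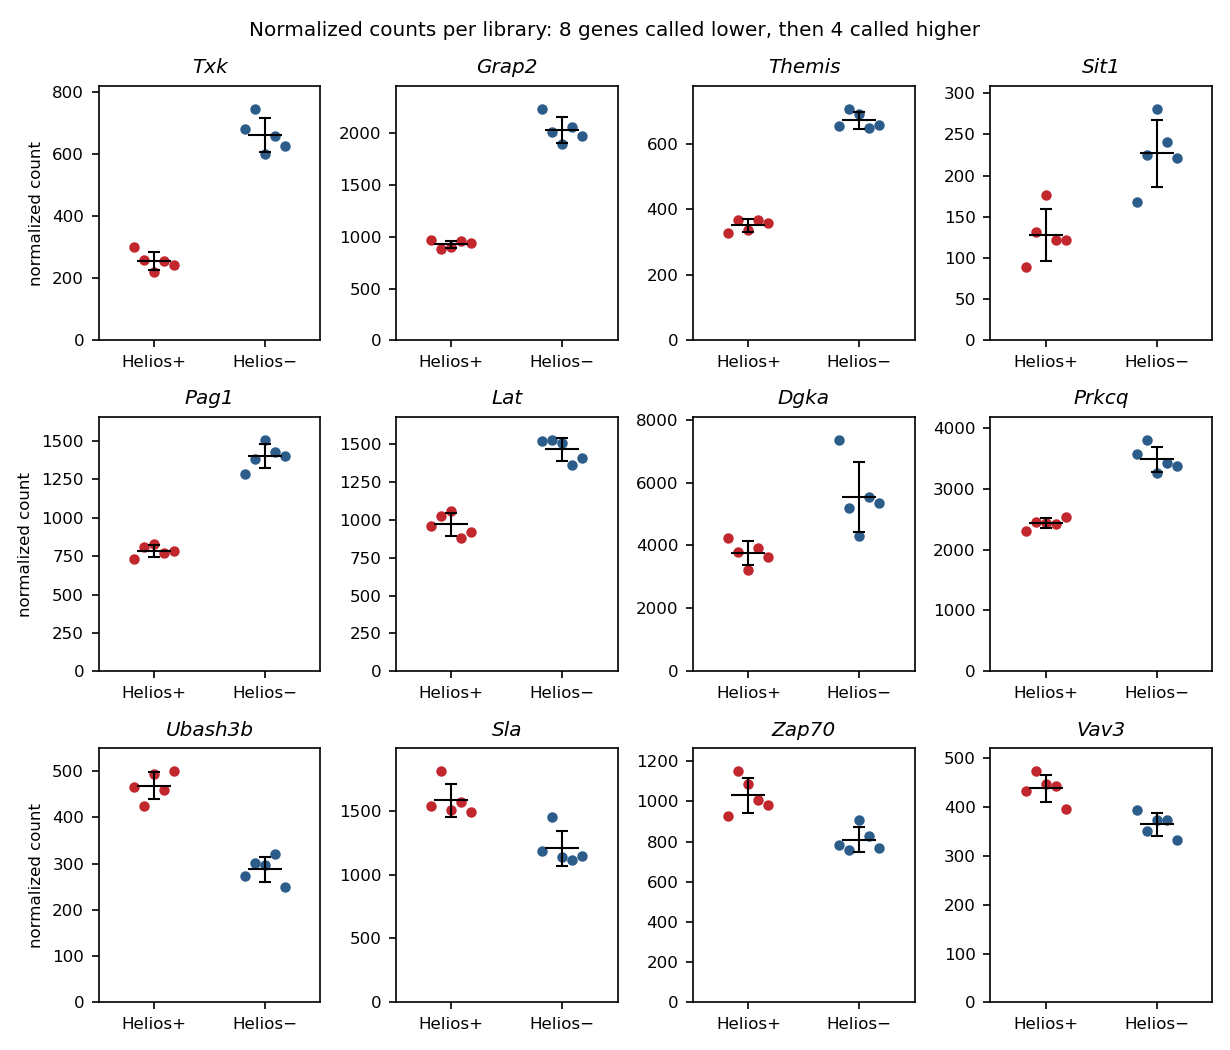
Normalized counts per library of the 8 members called lower with the largest changes (Txk, Grap2, Themis, Sit1, Pag1, Lat, Dgka and Prkcq) and the 4 called higher with the largest changes (Ubash3b, Sla, Zap70 and Vav3). Points are libraries in the order of replicate number, Helios+ left and Helios− right, the long tick is the mean and the bar its SD. Among these 12 genes the groups overlap for Sit1, at 168 to 176 normalized counts.

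Of the 6 enzymes and proteins on the way from lipid signals to NF-κB, 3 were lower and 0 were higher, where 10.7% and 14.1% of all tested genes were. After quantile normalization 1 of the 6 was lower, where 12.7% of all genes were. At an unadjusted p under 0.05 limma also had 0 higher, edgeR and DESeq2 called 0 higher, and the replicate block and quantile normalization each called 1, Dgkz. Prkcq (chromosome 2, 11172108 to 11301222, plus strand) encodes protein kinase C-theta, which diacylglycerol recruits to the contact with the antigen-presenting cell. It had 2312, 2449, 2436, 2421 and 2539 normalized counts in the Helios+ libraries, against 3567, 3795, 3256, 3420.2 and 3365 in the Helios− libraries. It was 1.43-fold lower in Helios+ cells (log2 change −0.52 ± 0.06, limma adjusted p = 1.45e-05). Plcg1, the phospholipase that makes diacylglycerol, averaged 1802 ± 116 normalized counts in Helios+ and 1881 ± 199.6 in Helios− libraries, with a 95% interval of its log2 change of −0.22 to 0.11.

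The diacylglycerol kinases, which remove that lipid, differed from each other. Dgka (chromosome 10, 128720134 to 128744855, minus strand) had 4241, 3785, 3236, 3935 and 3627 normalized counts in the Helios+ libraries, against 7347, 5189, 4296, 5547 and 5345 in the Helios− libraries. Helios− library 1 was the highest of all and Helios− library 3 lay only a little above Helios+ library 1. The log2 change was −0.54 ± 0.12 (limma adjusted p = 0.003, and 0.0503 after quantile normalization). Dgkz averaged 2976 ± 131 normalized counts in Helios+ and 2731 ± 133 in Helios− libraries and differed by 0.12 ± 0.06 (limma adjusted p = 0.167, 0.0468 with the replicate block and 0.0112 after quantile normalization).

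Malt1, the protease of the complex that activates NF-κB, averaged 1048 ± 125 normalized counts in Helios+ and 1286 ± 169.8 in Helios− libraries and differed by −0.29 ± 0.10 (limma adjusted p = 0.0384) with overlapping groups. That call was lost without Helios+ library 3 or 5 or Helios− library 1, 2 or 4 (adjusted p of 0.0593 to 0.106), without both libraries of number 1, with edgeR (adjusted p = 0.0503) and with quantile normalization (limma adjusted p = 0.0909). Bcl10, its partner, averaged 245 ± 24.8 normalized counts in Helios+ and 222 ± 37.03 in Helios− libraries and was not called (limma adjusted p = 0.374).

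The 7 inhibitory adaptors, ubiquitin ligases and Sts proteins were divided, with 2 higher, 2 lower and 3 not called. The higher and the lower calls were 28.6% each, beside 14.1% and 10.7% of all tested genes. Ubash3b (chromosome 9, 41011098 to 41161697, minus strand) encodes Sts-1, a phosphatase that acts on ZAP-70. It had 465, 425, 492, 459.5 and 499.5 normalized counts in the Helios+ libraries, against 273, 302, 296, 319.8 and 250.1 in the Helios− libraries. It was 1.63-fold higher in Helios+ cells, the largest increase among the members (log2 change 0.70 ± 0.08, limma adjusted p = 8.76e-06). Ubash3a, which encodes the related Sts-2, averaged 972 ± 44.6 normalized counts in Helios+ and 971 ± 50.5 in Helios− libraries, with a 95% interval of its log2 change of −0.13 to 0.13.

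Sla (chromosome 15, 66780819 to 66831829, minus strand), which encodes the Src-like adaptor that promotes loss of receptor chains from the surface, had 1534, 1808, 1503, 1566 and 1489 normalized counts in the Helios+ libraries, against 1181, 1450.1, 1137, 1112 and 1144 in the Helios− libraries. The replicate 2 library was the highest in each group, and the groups did not overlap (log2 change 0.39 ± 0.08, limma adjusted p = 0.00201). Its relative Sla2, with 23.6% of exon bases shared with Rab5if, averaged 252 ± 22.9 normalized counts in Helios+ and 243 ± 31.3 in Helios− libraries and differed by 0.06 ± 0.10 (limma adjusted p = 0.731).

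Sit1 (chromosome 4, 43482081 to 43483734, minus strand), an inhibitory transmembrane adaptor, had 89.1, 131, 176, 122 and 122 normalized counts in the Helios+ libraries, against 168, 225, 281, 241 and 221 in the Helios− libraries. The groups overlapped, while the Helios+ library was the lower one at each of the 5 replicate numbers, and the mean was 1.77-fold lower in Helios+ cells (log2 change −0.84 ± 0.16, limma adjusted p = 0.00147). Cblb, a ubiquitin ligase that restrains T cell activation, averaged 1708 ± 155 normalized counts in Helios+ and 1999 ± 177 in Helios− libraries and differed by −0.23 ± 0.08 (limma adjusted p = 0.0464) with overlapping groups. That call was lost without Helios+ library 3, 4 or 5 or Helios− library 1, 2 or 4 (adjusted p of 0.0648 to 0.128), without both libraries of number 3, with edgeR (adjusted p = 0.0685) and with quantile normalization (limma adjusted p = 0.214). Its relative Cbl averaged 1969 ± 59.9 normalized counts in Helios+ and 2098 ± 158 in Helios− libraries and was not called (limma adjusted p = 0.354).

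For 11 couples of related members, the log2 ratio of the first to the second was taken within each library and its mean compared between the groups with an exact two-sided permutation test. The ratio differed for 7 of the 11 (Benjamini-Hochberg adjusted p under 0.05 over the 11). The couples were chosen with earlier results known and no share was computed for other couples of genes, so nothing particular to related genes is read from this count. For Lck/Fyn, Txk/Tec, Vav1/Vav3, Grb2/Grap2, Ubash3a/Ubash3b and Dgka/Dgkz the exact p was 0.0079, the smallest that 252 assignments of 5 against 5 libraries can give (adjusted p = 0.015), and the ratios of the groups did not overlap. The log2 ratio of Txk to Tec was 0.64 ± 0.18 in Helios+ and 1.85 ± 0.26 in Helios− libraries (SD, n = 5 each). That of Grb2 to Grap2 was −0.80 ± 0.11 in Helios+ and −1.98 ± 0.30 in Helios− libraries. By normalized count, which is not corrected for gene length, Grb2 was thus the lower of these in every library. Per kilobase of exon, Grb2 stood at 183 and Grap2 at 149 in Helios+ libraries, so Grb2 was the higher one there. In Helios− libraries they stood at 177 and 326. This order of means depends on the exon lengths used, 2.916 kb for Grb2 and 6.243 kb for Grap2, and was not tested.

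The log2 ratio of Ubash3a to Ubash3b was 1.05 ± 0.16 in Helios+ and 1.75 ± 0.15 in Helios− libraries, and that of Dgka to Dgkz 0.33 ± 0.15 in Helios+ and 1.00 ± 0.32 in Helios− libraries (SD, n = 5 each). Lck over Fyn differed by −0.27 and Vav1 over Vav3 by −0.45 in log2 (Helios+ minus Helios−). The couple Cd3d/Cd3g differed by −0.17 (exact permutation p = 0.024, adjusted p = 0.037), which was lost without Helios+ library 1, 3, 4 or 5 or Helios− library 1, 3, 4 or 5 (adjusted p of 0.0624 to 0.0873). The ratios of Sla to Sla2 (exact permutation p = 0.071), Cd5 to Cd6 (exact permutation p = 0.079), Cbl to Cblb (exact permutation p = 0.13) and Nck1 to Nck2 (exact permutation p = 0.38) did not pass the threshold, with adjusted p of 0.097, 0.097, 0.14 and 0.38. Compared at equal replicate numbers, the ratio moved one way in 5 of 5 numbers for 7 couples, which were Sla/Sla2, higher in Helios+ libraries, and the 6 without overlap. For those 6 couples this is certain under any numbering.

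**Figure D3:**
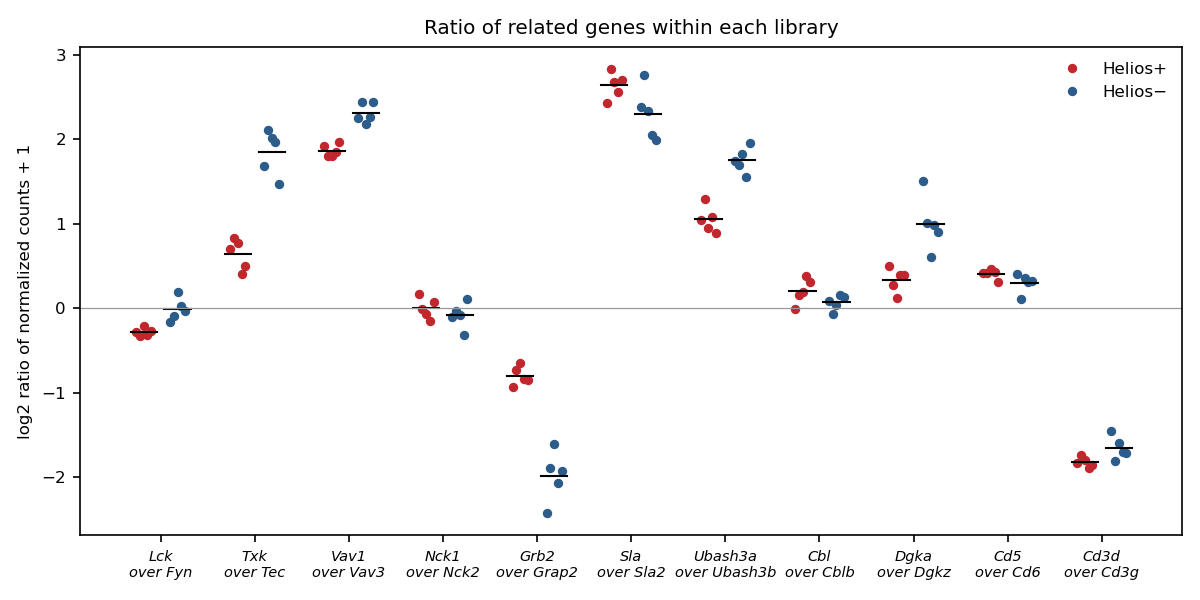
Log2 ratio of normalized counts + 1 of 11 couples of related members within each library, Helios+ libraries in red and Helios− libraries in blue, with a line at each group's mean. The ratios separate the groups without overlap for 6 couples, most widely for Txk over Tec and Grb2 over Grap2.

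Levels between genes were set side by side as normalized counts per kilobase of exon (the union of exons in GENCODE vM21), which is a level and not a difference. That union takes in every annotated exon, and which of them these cells use was not examined. Orders between genes depend on it. Cd2 was the highest member, at 2164 in Helios+ and 1920.5 in Helios− libraries. Fyb followed with 1149 in Helios+ and 1494 in Helios− libraries. Cd3g had 1089 in Helios+ and 901 in Helios− libraries, Lck 939 in Helios+ and 965 in Helios− libraries, Dgka 791 in Helios+ and 1164 in Helios− libraries and Cd4 796 in Helios+ and 827 in Helios− libraries, so Dgka stood above Cd3g and Lck in Helios− libraries and below both in Helios+ libraries. These orders of means were not tested. The lowest member was Txk in Helios+ libraries, at 23.4, and Ubash3b in Helios− libraries, at 39.3. Txk stood at 60.4 in Helios− libraries and Ubash3b at 63.9 in Helios+ libraries, so these 2 genes changed places. The exon lengths used were 10.955 kb for Txk and 7.326 kb for Ubash3b, and this order was not tested either. Lcp2 had 576 in Helios+ and 558 in Helios− libraries, against which Grap2 stood at 149 in Helios+ and 326 in Helios− libraries.

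Members also varied with the replicate number inside each group. In both groups the library with number 1 had the lowest Cd3d, Cd3e and Cd3g and the highest Dgka, and the library with number 3 had the lowest Dgka. The nuclear RNA Malat1 took 2.27% of the reads in Helios+ and 3.64% in Helios− library 1, the highest share of each group, and 1.30% and 1.43% in libraries 3, the lowest. The ribosomal precursor Rn45s took 13.8% and 18.6% in libraries 3, again the highest of each group. Whether these shares have a part in the levels of Dgka and the CD3 chains was not tested. Without both libraries of number 1, limma called 6 members higher and 14 lower, and without both of number 3 it called 5 and 14, against 6 and 15 with all libraries. Grap2 was lower in the Helios+ library at every number, and Sla was highest at number 2 in both groups.

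**Figure D4:**
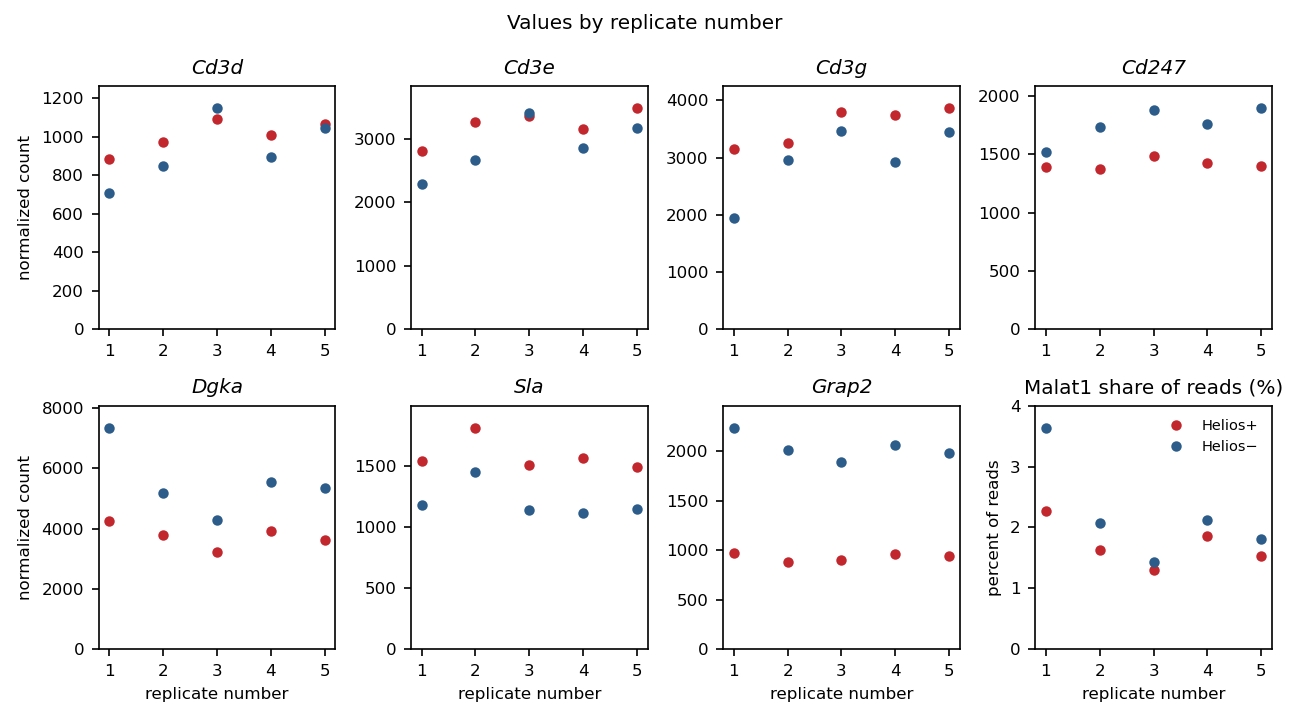
Normalized counts of 7 members by replicate number, with Helios+ libraries in red and Helios− libraries in blue, and the share of reads taken by Malat1 in percent. Number 1 is lowest for Cd3d, Cd3e and Cd3g and highest for Dgka and Malat1 in both groups, and Grap2 is lower in Helios+ than in Helios− libraries at all 5 numbers.

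Other genes of the pathway, in 5 lists of 135 symbols of which 128 were tested, were called lower in 29 cases (22.7%) and higher in 19 (14.8%), beside 10.7% and 14.1% of all tested genes. After quantile normalization 23 were lower and 22 higher, beside 12.7% and 12.8% of all genes, so the lean to lower calls was nearly gone. With the replicate block 41 were lower and 28 higher, beside 18.5% and 18.9%. Among 35 tested genes of proximal signalling that were not members, 9 were lower and 7 higher, with a median log2 change of −0.01. The higher gene with the smallest p was Sh2d1a, the adaptor SAP of SLAM receptors, at 208 ± 26.2 normalized counts in Helios+ and 113 ± 15.1 in Helios− libraries (log2 change 0.88 ± 0.12, limma adjusted p = 4.1e-05), with 26.6% of its exon bases shared with other genes.

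In the Ras and MAP kinase list 5 of 25 tested genes were lower and 1, Spry1, was higher (8 and 4 with the replicate block), with a median log2 change of −0.05. The higher calls were 3 without Helios− library 1, and 2 with TMM scaling, quantile normalization, DESeq2 or without both libraries of number 1. The Ras GTPase-activating gene Rasa3 averaged 1760.2 ± 118 normalized counts in Helios+ and 2531 ± 125 in Helios− libraries (log2 change −0.52 ± 0.07, limma adjusted p = 1.99e-05). The exchange factors Rasgrp1 and Rasgrp2, together with Nras and Rasal3, were the other lower genes, named after their values were seen. Spry1, an inhibitor of Ras signalling, averaged 134 ± 30.9 normalized counts in Helios+ and 68.5 ± 24.5 in Helios− libraries (log2 change 0.99 ± 0.21, limma adjusted p = 0.00267), with 24.4% of exon bases shared.

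Of 21 tested genes of calcium and NFAT signalling, 4 were lower (19.0%) and 2 higher (9.52%), with a median log2 change of −0.06. For this list and the next 2, the shares of all tested genes were 10.7% lower and 14.1% higher. Rcan3, a regulator of calcineurin, averaged 374 ± 34.4 normalized counts in Helios+ and 533 ± 53.9 in Helios− libraries (log2 change −0.51 ± 0.09, limma adjusted p = 0.000481), and the transcription factor Nfatc1 3408 ± 138 normalized counts in Helios+ and 2247 ± 125 in Helios− libraries (log2 change 0.60 ± 0.06, limma adjusted p = 2.82e-06). Of 23 tested genes of protein kinase C and NF-κB signalling, 7 were higher (30.4%) and 4 lower (17.4%), with a median of −0.02. Prkca, the alpha isoform of protein kinase C, averaged 2285 ± 75.01 normalized counts in Helios+ and 1434 ± 65.01 in Helios− libraries (log2 change 0.67 ± 0.06, limma adjusted p = 4.22e-07), so the genes of the theta and alpha isoforms were called in opposite directions. Of 24 tested genes of PI3 kinase and Akt signalling, 7 were lower (29.2%) and 2 higher (8.33%), with a median of −0.08. Without Helios+ library 1 or without Helios− library 5, 4 were lower. The regulatory subunit gene Pik3r5 averaged 705 ± 104 normalized counts in Helios+ and 1287 ± 132 in Helios− libraries (log2 change −0.87 ± 0.10, limma adjusted p = 6.99e-06), and Phlpp1, a phosphatase that acts on Akt, 429 ± 57.05 normalized counts in Helios+ and 194 ± 15.7 in Helios− libraries (log2 change 1.13 ± 0.10, limma adjusted p = 3.85e-07).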

How the data were processed

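Per the labels' protocols, libraries were made from total RNA with a stranded kit for picogram input. HISAT2 (version 2.0.4), HTSeq, DESeq2 and the build mm10 appear in the submitters' processing notes, which state no roles. Annotation, strand setting and gene filters were not given in the sources used here, and overlapping or antisense genes may share reads. The authors deposited normalized counts, a signal that is never negative, for 13252 genes in 10 libraries. All values (100%) were multiples of the value of 1 read, taken as the smallest positive value of the library, to within 0.001, so the signal deposited equals read counts over a single size factor for each library, and whole reads were recovered by division. Size factors recomputed from these reads with DESeq2 differed by at most 2.6e-15 in relative terms.

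Genes with a mean of at least 10 normalized counts were tested (10718, leaving out 2534) with limma 3.58.1 (trend and robust options) in R 4.3.3 on log2(normalized count + 1), on which changes of low genes come out too small. The group was the only term, as the submitters state no block, so the main test leaves out the pairing by replicate number described below. Calls that take it in are those given with the replicate block. P-values were Benjamini-Hochberg adjusted over all tested genes, with 0.05 as the threshold. Alternatives were pseudocounts of 0.5 and 5, no filter and a minimum mean of 50, TMM scaling, quantile normalization, edgeR 4.0.16 and DESeq2 1.42.0 on recovered reads, the replicate block, and leaving out each library. The scripts were tested on simulated data. Positions and exon overlaps, on either strand, came from GENCODE vM21 (GRCm38, the same assembly as mm10), and promoters from RefSeq.

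Libraries with equal replicate numbers deviated together from their group means. Correlations across genes were 0.48, 0.19, 0.39, 0.16 and 0.15 for numbers 1 to 5, all above the minimum of 0.1. With unequal numbers they reached at most 0.099, −0.00078, 0.117, 0.099 and 0.117. Since 0.117 also passes 0.1, that minimum alone does not separate equal from unequal numbers, and numbers 4 and 5 stood out least. Equal numbers were taken to pair the libraries. Within groups, libraries differed beyond sampling noise (chi-square divided by its degrees of freedom, 3.66 to 55.1 in 20 comparisons), and none were merged. Every member is named. In each list of other pathway genes the called gene with the smallest p in each direction is named, except for a few that are not reported here, and of each marker list the 2 most abundant genes. Other called genes of these lists were named after their values were seen. The members, lists and couples were chosen with earlier results of these data known, so they carry no independent support.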

Additional observations from a re-analysis of the deposited data

Results flagged for a closer look

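In groups of 5 libraries, a value was marked when its gap to the nearest other library exceeded 0.71 of the whole range of the group. Of the 80 groups of the 40 members, 5 were marked, and chance marks about 1 in 20. Sla in replicate 2 was the highest of its group in both populations, at 1808 normalized counts in the Helios+ and 1450.1 in the Helios− library, where the next values were 1566 and 1181. Lcp2 (2731, next 2562) and Sos1 (616, next 578) were marked in Helios+ replicate 3. Cd6 was marked as lowest in Helios− replicate 1, at 1271 normalized counts, the next value being 1382.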

How the results depend on the processing

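The counts of called members were 6 higher and 15 lower. With the replicate block they were 10 and 15, and 1979 genes of the whole table were called lower. Quantile normalization gave 10 and 9. Leaving out single libraries gave 5 to 6 members higher and 11 to 15 lower, 1332 to 1614 of all genes higher and 927 to 1293 lower, 17 to 22 other pathway genes higher and 24 to 31 lower, and 6 to 8 couples with a shifted ratio. The cause of these shifts was not tested. Of the 21 called members, 16 kept their call whichever library was left out, and 14 kept it under every alternative run: Cd247, Fyn, Zap70, Lat, Txk, Vav3, Grap2, Sos1, Themis, Sla, Ubash3b, Prkcq, Pag1 and Sit1. Members that changed sign were all uncalled. With quantile normalization the log2 changes of Cd4, Lck and Plcg1 were 0.044, 0.083 and 0.023. Leaving out single libraries gave −0.096 to 0.024 for Cd4, −0.077 to 0.024 for Lck, −0.023 to 0.12 for Grb2 and −0.026 to 0.029 for Ubash3a. Without both libraries of number 3 Lck was at 0.0039, and without both of number 1 Grb2 was at −0.0037, Sla2 at −0.011 and Ubash3a at −0.017. The ratio of Sla to Sla2 passed the threshold after quantile normalization and without Helios− library 2 (exact permutation test, adjusted p = 0.0327 and 0.0218), that of Cbl to Cblb without Helios+ library 1 and that of Cd5 to Cd6 without Helios+ library 5. The 2 settings that leave out both libraries of a number were chosen after seeing the data. Besides the changes given, the replicate block changed no other call of a member. The ratios were not tested with the block, since an exact test of 5 pairs cannot go below p = 0.0625. Reads per library numbered 4872348 to 6948692, and the least abundant member, Tec, had one of the wider 95% intervals, −0.45 to 0.13. How much of that width depth gives was not tested.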
